A study of Mus musculus with 6 samples.

Results

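The transcripts of the YAP-TEAD transcription module were followed in Melan-Ink4a cells kept with or without neuregulin 1. They comprised Yap1, the 4 TEAD factor genes Tead1 to Tead4, and 5 genes known as their targets or feedback partners (Ccn1, Ccn2, Ankrd1, Amotl2 and Ajuba). For each gene the brightest probe set naming that gene alone was taken, and all 10 genes were matched, out of 19938 genes tested. YAP1 is a coactivator that cannot bind DNA by itself and acts by joining a TEAD factor on the promoters and enhancers of its targets. In the Hippo pathway the MST kinases activate the LATS kinases, which phosphorylate YAP1 and its relative TAZ and so hold them in the cytoplasm, whereas cell spreading, actin tension and low cell density let them enter the nucleus. CCN1 and CCN2 are secreted matrix-associated proteins commonly used as readouts of YAP activity, and AMOTL2 is a target that in turn binds and restrains YAP1.

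Melan-Ink4a is an immortal line of skin melanocytes of the C57BL/6J strain, null for Ink4a-ARF1. The treated group received 10 nM NRG1-b1, a ligand of the receptor ERBB3, for 21 days (3 arrays), and the untreated group (3 arrays) is named as untreated in the sample titles and the design text. The treatment text attached to the untreated samples repeats that of the treated ones, so the groups rest on those titles. Both groups grew in medium with 10% serum, the phorbol ester TPA at 200 nM and cholera toxin at 200 pM, and RNA came from cells described as 90% confluent. Each array of the Affymetrix Mouse Gene ST type was run from 200 ng of total RNA, and levels are given as the log2 values that the authors deposited. All samples are of 1 cell line, and since nothing in the labels tells whether replicates were grown as separate cultures, the p-values rest on a spread between samples that may be technical. The arrays measured transcripts, and neither the location nor the phosphorylation of the YAP1 protein was measured.

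Over the tested genes, correlations between arrays were 0.996 to 0.997 within a group and 0.981 to 0.986 between groups. The 8 melanocyte markers measured were all above the median level of tested genes in both groups, and 7 of them fell with NRG1 (87.5% called, against 20.9% of all genes). Of these, the Dct call (-0.23) ended when the tested genes alone were quantile normalized (-0.085) and when NRG1 replicate 1 (adjusted p = 0.0594) or untreated replicate 1 (adjusted p = 0.0536) was left out, and those of Dct, Tyr and Tyrp1 ended in a test for changes over 1.2-fold. Their summed log2 level ran from 93.9 to 94.1 with NRG1 and from 98.5 to 98.8 in untreated cells. Markers of fibroblasts were called in 1 of 7 cases (14.3%), Col1a1, 0.86 higher with NRG1 on the log2 scale. Col1a2, the only other fibroblast marker with an unadjusted p under 0.05 (limma, 0.0119), was 0.27 lower with NRG1. Its groups did not overlap, and it was not called (limma, adjusted p = 0.0551). Summed levels of the fibroblast markers were 47.1 to 48.1 with NRG1 and 46.6 to 47.9 untreated. Mean levels were below the median of tested genes in both groups for 4 of the 7, and above it for Col1a1, Col1a2 and Col3a1. Setting levels against that median is rough, because each probe set has its own response. None of 6 keratinocyte, 4 endothelial, 4 smooth muscle and pericyte or 2 Schwann cell markers was called by limma, and all 16 had mean levels below the median of tested genes in both groups. Of these 16, only Kdr, Myh11 and Egr2, each lower with NRG1, had an unadjusted p under 0.05, at 0.0310, 0.0220 and 0.0313. Of 4 immune cell markers, 1 was called (25%, against 20.9% of all genes), namely Cd68, 0.23 higher with NRG1. That call ended in 4 of the 6 fits that left out an array, without NRG1 replicate 1 (adjusted p = 0.130), NRG1 replicate 3 (0.0650), untreated replicate 2 (0.0647) and untreated replicate 3 (0.0933). It also ended after quantile normalization of the tested genes alone (limma, adjusted p = 0.0641), with all probe sets tested (0.0688) and against a minimum change of 1.2-fold. The 3 other immune cell markers had mean levels below the median of tested genes in both groups. In RNA from a whole culture, fewer cells of a type and less RNA per cell cannot be told apart. The part of these differences in the results below was not tested.

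With NRG1, 4 of the 10 genes changed, 2 in each direction (limma, adjusted p under 0.05). Ccn1 rose 2.33-fold and Tead2 1.64-fold, while Amotl2 fell 1.56-fold and Tead4 1.27-fold. The remaining 6 genes, Yap1, Tead1, Tead3, Ccn2, Ankrd1 and Ajuba, were not called. Over all genes, 20.9% were called, 12.3% higher and 8.56% lower with NRG1, and the members' share was 40%. The share called depended on signal level. Without genes below the median level it was 43.9% of all genes and 66.7% of the 9 members kept. After quantile normalization of the tested genes alone the split over all genes was 2257 higher and 2396 lower, against 2461 and 1707, and the members still divided into 2 higher and 2 lower. The 3 values of each group did not overlap for 6 of the 10 genes, and for 36.7% of all genes. The median difference of the 10 genes was 0.095 on the log2 scale, and that of all genes was -0.029.

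**Figure D1:**
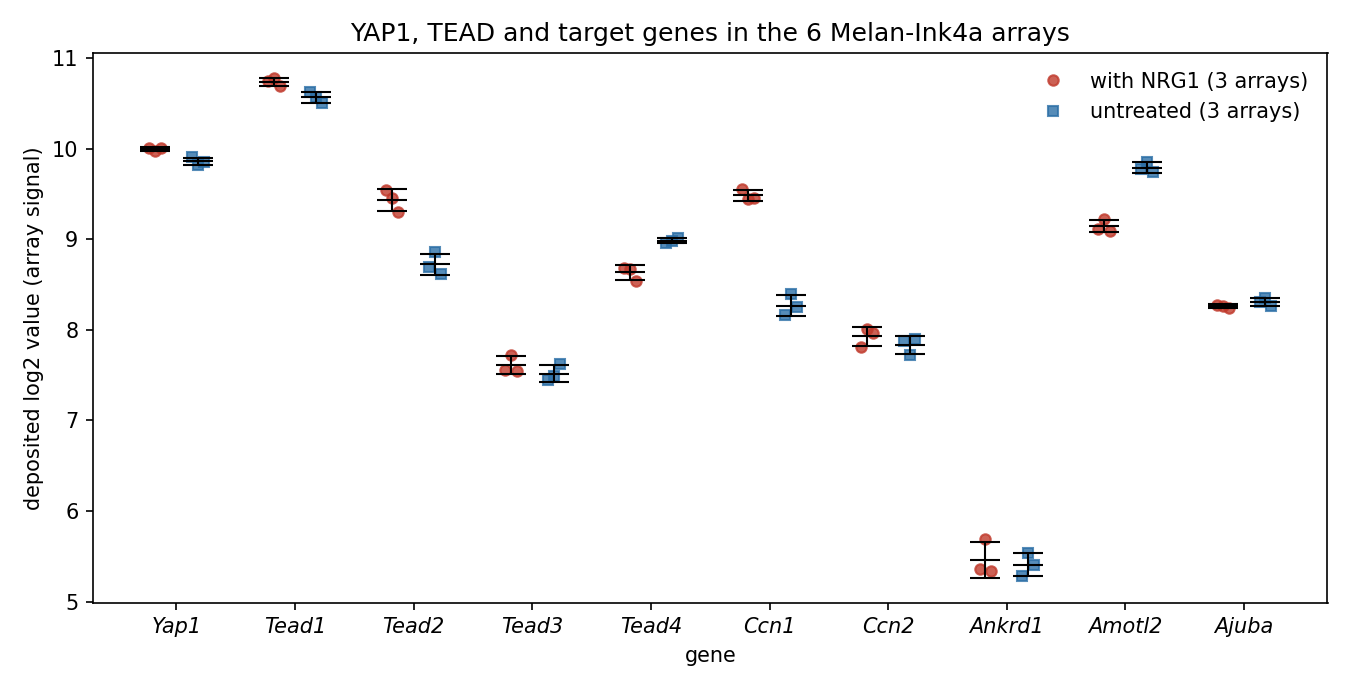
Deposited log2 values (vertical axis) of the 10 genes (horizontal axis) in the 3 arrays with NRG1 (circles) and the 3 untreated arrays (squares), with the mean and SD of each group as black bars. The groups are separated most clearly for Ccn1, Tead2, Amotl2 and Tead4, and levels of different genes are not comparable because each probe set has its own response.

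Yap1, the coactivator, lay at log2 values of 10.00, 9.97 and 10.01 in the 3 NRG1 arrays, against 9.91, 9.82 and 9.85 in the untreated arrays. All NRG1 values were above all untreated values, by a small margin. The difference was 0.14 ± 0.058 (SE; 95% confidence interval 0.0074 to 0.27), and it did not pass the adjusted threshold (limma, adjusted p = 0.134). With an intensity trend and a robust prior, or when genes below the median level were left out, the same difference passed, at adjusted p = 0.0482 and 0.0494, in a range from 0.0482 to 1 over 17 alternatives. The interval, which is not adjusted for the number of genes, leaves out any change of Yap1 above 0.27 on the log2 scale.

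The TEAD factors share a DNA-binding domain and differ in the tissues and stages in which they are used. Tead2 is known from the mouse embryo, where it is prominent in the neural folds and neural tube. It stood at 9.54, 9.46 and 9.30 with NRG1, against 8.69, 8.86 and 8.62 untreated. The groups were well apart, and Tead2 rose by 0.71 ± 0.083 (SE; limma, adjusted p = 0.000147). This call held under all 17 alternatives, with differences from 0.65 to 0.78.

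Tead4, a factor known for specifying the trophectoderm of the mouse embryo, moved the other way. Its values were 8.69, 8.68 and 8.54 with NRG1, against 8.96, 8.98 and 9.01 untreated, again without overlap. It fell by 0.35 on the log2 scale (SE 0.063; limma, adjusted p = 0.00279), a change that was not called against a minimum of 1.2-fold (limma treat, adjusted p = 0.968) and was called under the other 16 alternatives.

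Tead1, known from the mouse for its part in heart muscle development, had 10.74, 10.78 and 10.70 with NRG1, against 10.63, 10.57 and 10.51 untreated. The groups did not overlap, but the difference of 0.17 ± 0.061 (SE; 95% confidence interval 0.033 to 0.31) was not called (limma, adjusted p = 0.0817). Its second probe set gave 0.11 ± 0.065 with overlapping groups, and the call was made in 2 of 18 alternatives, the same 2 as for Yap1, at adjusted p = 0.0149 with the trend and 0.0254 without the dimmer genes. Tead3, whose groups overlapped at 7.56, 7.73 and 7.55 with NRG1 and 7.44, 7.49 and 7.62 untreated, differed by 0.094 (95% confidence interval -0.070 to 0.26) and was called in none of 17 alternatives, where its adjusted p ran from 0.141 to 1.

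The spread between the 4 TEAD genes was measured as the difference between their changes within arrays. The change of Tead2 exceeded that of Tead4 by 1.06 ± 0.081 on the log2 scale (SE from 3 arrays per group). The 7 gene pairs compared in this way were those of the TEAD genes and Ccn1 with Ccn2, so that pairs share genes. Of these pairs, 6 gave an exact permutation p = 0.1 (2-sided), the smallest that 3 arrays against 3 allow, and adjusted p = 0.117. The pair Tead1 and Tead3 differed by 0.075 ± 0.095 (exact permutation p = 0.7, adjusted p = 0.7). This permutation test thus could not place any of these differences past 0.05. Its smallest p means no more than that the values of a pair did not overlap between the groups, so it decides nothing further.

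Among the secreted targets, Ccn1 had the largest change of the 10 genes and Ccn2 was not called. Ccn1 encodes a matrix protein that binds integrins and is induced quickly by growth factors. It stood at 9.55, 9.44 and 9.46 with NRG1, against 8.16, 8.40 and 8.25 untreated, so that the lowest treated array was far above the highest untreated one. Ccn1 rose by 1.22 ± 0.073 (SE; 95% confidence interval 1.05 to 1.38; limma, adjusted p = 1.36e-06), and 248 of the 19938 genes had a larger absolute change. The call held in all 17 alternatives, at 1.15 to 1.29.

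Ccn2, the connective tissue growth factor gene, had 7.81, 8.01 and 7.96 with NRG1, against 7.88, 7.72 and 7.90 untreated. The groups overlapped, and the difference of 0.096 ± 0.077 (SE; limma, adjusted p = 0.441) had a 95% confidence interval of -0.074 to 0.27. The change of Ccn1 was larger than that of Ccn2 by 1.12 ± 0.155 (SE) within arrays (exact permutation p = 0.1 and adjusted p = 0.117, among the 7 pairs above).

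Ankrd1 encodes a cardiac ankyrin repeat protein that resides in the nucleus and at the sarcomere of muscle. It was listed at 5.36, 5.69 and 5.34 with NRG1, against 5.28, 5.53 and 5.40 untreated, with overlapping groups. The difference of 0.054 ± 0.102 (SE; 95% confidence interval -0.17 to 0.28; limma, adjusted p = 0.774) changed sign without NRG1 replicate 2 (-0.059) and without untreated replicate 1 (-0.009). Its mean signal was at the 16.6th percentile of the tested genes, a range in which array signals are compressed and differences can be understated.

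Of the feedback genes, Amotl2 fell and Ajuba was not called. Amotl2 encodes an angiomotin-like scaffold at cell junctions that binds YAP1. Its values were 9.12, 9.22 and 9.10 with NRG1, against 9.77, 9.86 and 9.74 untreated, and the groups were far apart. Amotl2 fell by 0.65 on the log2 scale (SE 0.064; 95% confidence interval -0.79 to -0.50; limma, adjusted p = 4.55e-05), and all 17 alternatives called it, at -0.71 to -0.61. Ajuba, which encodes a LIM protein that binds LATS kinases at junctions, had 8.28, 8.27 and 8.24 with NRG1, against 8.30, 8.35 and 8.27 untreated. The highest treated and the lowest untreated array overlapped, and the difference of -0.043 ± 0.057 (SE; 95% confidence interval -0.17 to 0.085) was not called (limma, adjusted p = 0.664).

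**Figure D2:**
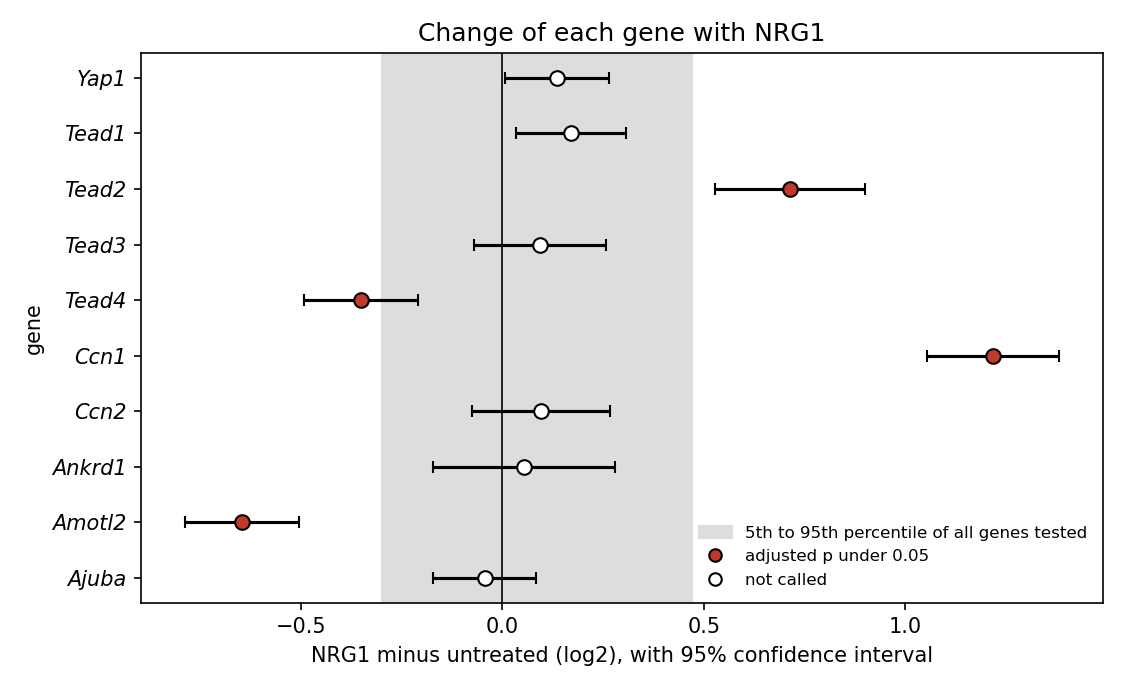
Difference between NRG1 and untreated cells (horizontal axis, log2) for each of the 10 genes (vertical axis), with the 95% confidence interval from limma as a bar, filled where the adjusted p was under 0.05. Ccn1 and Tead2 lie to the right of the grey band, which spans the 5th to 95th percentile of all genes tested (-0.30 to 0.47), Amotl2 and Tead4 lie to its left, and the other 6 lie within it.

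The promoters of the targets were compared because Ccn1 and Amotl2 moved in opposite directions while Ankrd1 was not called, although all are known TEAD targets. TEAD factors recognise the core GGAATG, which reads CATTCC on the other strand. Promoter windows of 300 bases, from 250 before to 50 after an annotated start, were available from RefSeq (build GRCm38.p6) for 7 of the 10 genes, in 9 windows, of which the 3 of Tead3 overlap in part. The windows of the 3 targets are given 5′ to 3′ on the strand of the gene, with the TEAD core in capitals. That of Ccn1 is chr3:145649936-145650235 on the minus strand, that of Amotl2 chr9:102717554-102717853 on the plus strand, and that of Ankrd1 chr19:36119795-36120094 on the minus strand.
Ccn1: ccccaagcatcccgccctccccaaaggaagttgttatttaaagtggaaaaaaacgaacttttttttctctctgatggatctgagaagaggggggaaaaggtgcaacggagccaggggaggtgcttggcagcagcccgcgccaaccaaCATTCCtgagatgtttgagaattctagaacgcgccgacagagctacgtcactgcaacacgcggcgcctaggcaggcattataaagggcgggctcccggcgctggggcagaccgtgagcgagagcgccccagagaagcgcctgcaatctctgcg
Amotl2: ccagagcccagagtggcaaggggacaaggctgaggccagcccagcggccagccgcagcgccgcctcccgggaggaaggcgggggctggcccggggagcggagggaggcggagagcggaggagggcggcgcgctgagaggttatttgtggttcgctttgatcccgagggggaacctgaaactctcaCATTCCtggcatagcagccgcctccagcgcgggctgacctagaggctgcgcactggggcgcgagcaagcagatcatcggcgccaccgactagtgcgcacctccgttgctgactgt
Ankrd1: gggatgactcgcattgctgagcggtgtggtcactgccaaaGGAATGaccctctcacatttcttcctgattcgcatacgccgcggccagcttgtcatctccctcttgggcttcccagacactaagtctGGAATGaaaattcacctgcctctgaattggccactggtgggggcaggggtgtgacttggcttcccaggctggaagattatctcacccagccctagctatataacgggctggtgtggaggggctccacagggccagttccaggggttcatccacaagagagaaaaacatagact
The Ccn1 window holds 1 core, beginning 103 bases before the start, and the Amotl2 window 1 core at 65 bases before the start, both in the CATTCC orientation. Ankrd1 has 2 cores in the GGAATG orientation, at 210 and 123 bases before the start. Over both strands, 7 of the 9 windows had at least 1 core, against 14.7% of the 32851 windows in the table. By gene it was 6 of the 7, with Tead3 counted over 3 windows, against 13.0% of tested genes with exactly 1 window. Several of these genes were listed as known TEAD targets, so this share is not an independent result. Ajuba had 2, at 186 and 164 bases before its start, Yap1 had 1, and the window of Tead2, which rose, had none. Tead3, which was not called, had 0, 3 and 1 cores in its 3 windows. Among called genes with a window, Ccn1 rose and Amotl2 fell, both with a core, and Tead2 rose without a core. In these few genes the core did not sort the direction of change. Tead4, which fell, had no window, and neither had Tead1 and Ccn2. The AP-1 core TGANTCA, searched on both strands in the same windows, was in 0 of the 9, against 7.81% of all windows. A match is a string of letters and not a bound site, and the absence of a match in such a window says nothing of enhancers elsewhere.

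**Figure D3:**
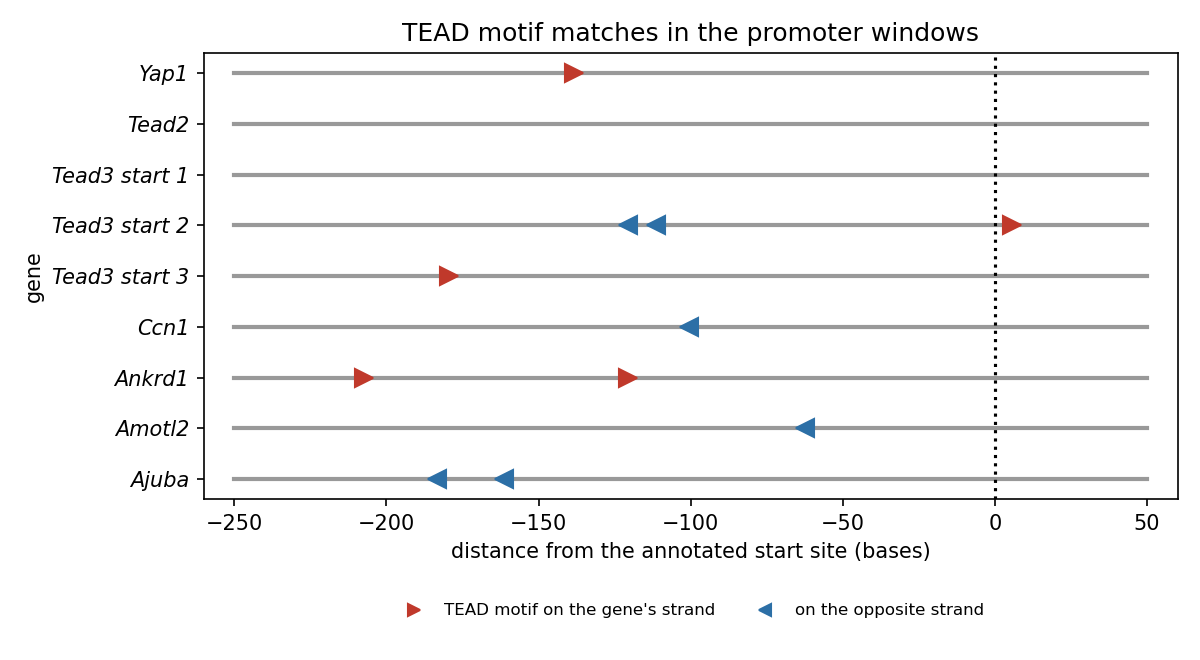
Positions of the TEAD core (triangles) in the 9 promoter windows (vertical axis) by distance from the annotated start in bases (horizontal axis), pointing right where the core lies on the gene's own strand and left where it lies on the opposite strand. Ccn1, Amotl2, Ankrd1, Ajuba and Yap1 each have 1 or 2 cores before the start, Tead2 has none, and the 3 Tead3 windows have 0, 3 and 1.

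Among other coregulators of TEAD factors, TAZ transcripts rose and Vgll3 transcripts fell. Of the 5 measured, 1 rose, 1 fell and 3 were not called (40%, against 20.9% of all genes). Wwtr1, which encodes TAZ, the relative of YAP1, stood at 10.20, 10.18 and 10.17 with NRG1, against 9.79, 9.99 and 9.82 untreated. It rose by 0.32 ± 0.068 (SE; limma, adjusted p = 0.00682), with no overlap between the groups, a call that ended in limma treat's test for changes over 1.2-fold (adjusted p = 1). Vgll3, a vestigial-like protein that binds TEAD factors, was at 9.45, 9.55 and 9.25 with NRG1, against 10.17, 10.34 and 10.06 untreated. It fell by 0.77 on the log2 scale (SE 0.094; limma, adjusted p = 0.000190), and the groups were well separated.

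In the Hippo kinase cassette and its upstream regulators, 4 of 25 measured genes rose and 3 fell, which is 28% called against 20.9% of all genes, with a median difference of 0.034 against -0.029. The split depended on the processing, at 3 and 4 after quantile normalization of all probe sets, 3 and 5 after that of the tested genes alone, 10 and 4 with array weights, 8 and 4 of 22 genes above the median level and 7 and 4 with an intensity trend and robust prior. Fat1, an atypical cadherin gene, was at 9.34, 9.28 and 9.23 with NRG1, against 7.82, 7.92 and 8.06 untreated, and rose by 1.34 ± 0.073 (SE; limma, adjusted p = 7.02e-07). Frmd6, a FERM-domain protein, rose by 0.46 and Csnk1e, a casein kinase 1 gene, by 0.36. Taok3, a kinase of the family that activates the Hippo kinases, fell by 0.43, Wwc2, a relative of the adaptor KIBRA, by 0.31, and Stk4, which encodes the MST1 kinase, by 0.25. The Stk4 call (limma, adjusted p = 0.0148) ended when NRG1 replicate 3 was left out (adjusted p = 0.0606) and likewise for untreated replicate 1 (adjusted p = 0.0622). The LATS kinase genes, chosen after their values were seen, were not called, with differences of -0.12 for Lats1 and 0.058 for Lats2 (limma, adjusted p = 0.196 and 0.597).

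Of 6 relatives of Amotl2 and Ajuba, 2 rose and 0 fell (limma), or 33.3% called against 20.9% of all genes, and at an unadjusted p under 0.05 there were also 2 higher and 0 lower. The LIM-domain genes Lpp and Limd1 rose by 0.54 and 0.37 (limma, adjusted p = 0.000180 and 0.00162), whereas the angiomotin genes Amot and Amotl1, named after their values were seen, differed by -0.0049 and -0.099 and were not called. Of 6 relatives of the CCN and ANKRD1 proteins, 0 rose and 1 fell (limma), or 16.7% called against 20.9% of all genes. At an unadjusted p under 0.05 there were 1 higher and 1 lower. The share of all genes at an unadjusted p under 0.05 was not counted. Ccn4, a Wnt-induced member of the CCN family, was at 8.75, 8.73 and 8.68 with NRG1, against 9.09, 9.34 and 9.19 untreated, and fell by 0.49 (limma, adjusted p = 0.000743) where Ccn1 rose.

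A signature of YAP and TAZ targets known from human cancer cells has 18 genes outside the 10 members, and all were measured, 2 of them (Lats2 and Ptpn14) also listed with the Hippo genes. With NRG1, 6 rose, 2 fell and 10 were not called, which is 44.4% called, against 20.9% of all genes. The median difference was 0.080, against -0.029 for all genes. F3, which encodes tissue factor, the starter of blood clotting, was at 9.99, 9.89 and 9.98 with NRG1, against 7.81, 7.95 and 7.57 untreated, and rose by 2.18 ± 0.092 (SE; limma, adjusted p = 1.32e-07). Igfbp3, an IGF-binding protein gene, rose by 1.27 and Tgfb2, a growth factor gene, by 1.19, both without overlap between the groups. Crim1, a transmembrane protein that binds bone morphogenetic proteins, was at 7.53, 7.70 and 7.64 with NRG1, against 8.82, 8.93 and 8.81 untreated. It fell by 1.23 on the log2 scale (SE 0.068; limma, adjusted p = 7.15e-07), and Asap1, a GTPase-activating protein gene, by 0.39. Promoter windows were available for 12 of the 18 genes, with 2 windows each for Lats2 and Rbms3. The TEAD core was in any window of 4 of these genes, against 13.0% of tested genes with exactly 1 window. Of the 7 called genes with a window 2 held it, Crim1 and the receptor tyrosine kinase gene Axl, which was named after its values were seen, while F3, Igfbp3 and Tgfb2 had none. The Axl call (0.30; limma, adjusted p = 0.0105) ended without untreated replicate 1 (0.27, adjusted p = 0.0511).

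Some YAP targets, Ccn1 among them, are also targets of serum response factor (SRF) and its actin-regulated coactivators. Of 14 such genes outside the members, 7 rose, 0 fell and 7 were not called by limma. This is 50% called, against 20.9% of all genes. At an unadjusted p under 0.05 (limma) there were also 7 higher and 0 lower, and the share of all genes at that threshold was not counted. The median difference was 0.21 against -0.029. Leaving out untreated replicate 2 gave 6 called higher and 1 called lower. With all probe sets of a gene averaged, 6 rose and the median difference was 0.11. Vcl, the vinculin gene, rose by 1.07 (limma, adjusted p = 1.36e-06), Myl9, a myosin light chain gene, by 0.93, and Actn1, the alpha-actinin gene, by 0.78. Srf itself was not called, at 0.090 (limma, adjusted p = 0.408), and neither were the smooth muscle genes Acta2, Tagln and Cnn1, all 4 named after their values were seen, at 0.13, 0.0061 and -0.053.

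**Figure D4:**
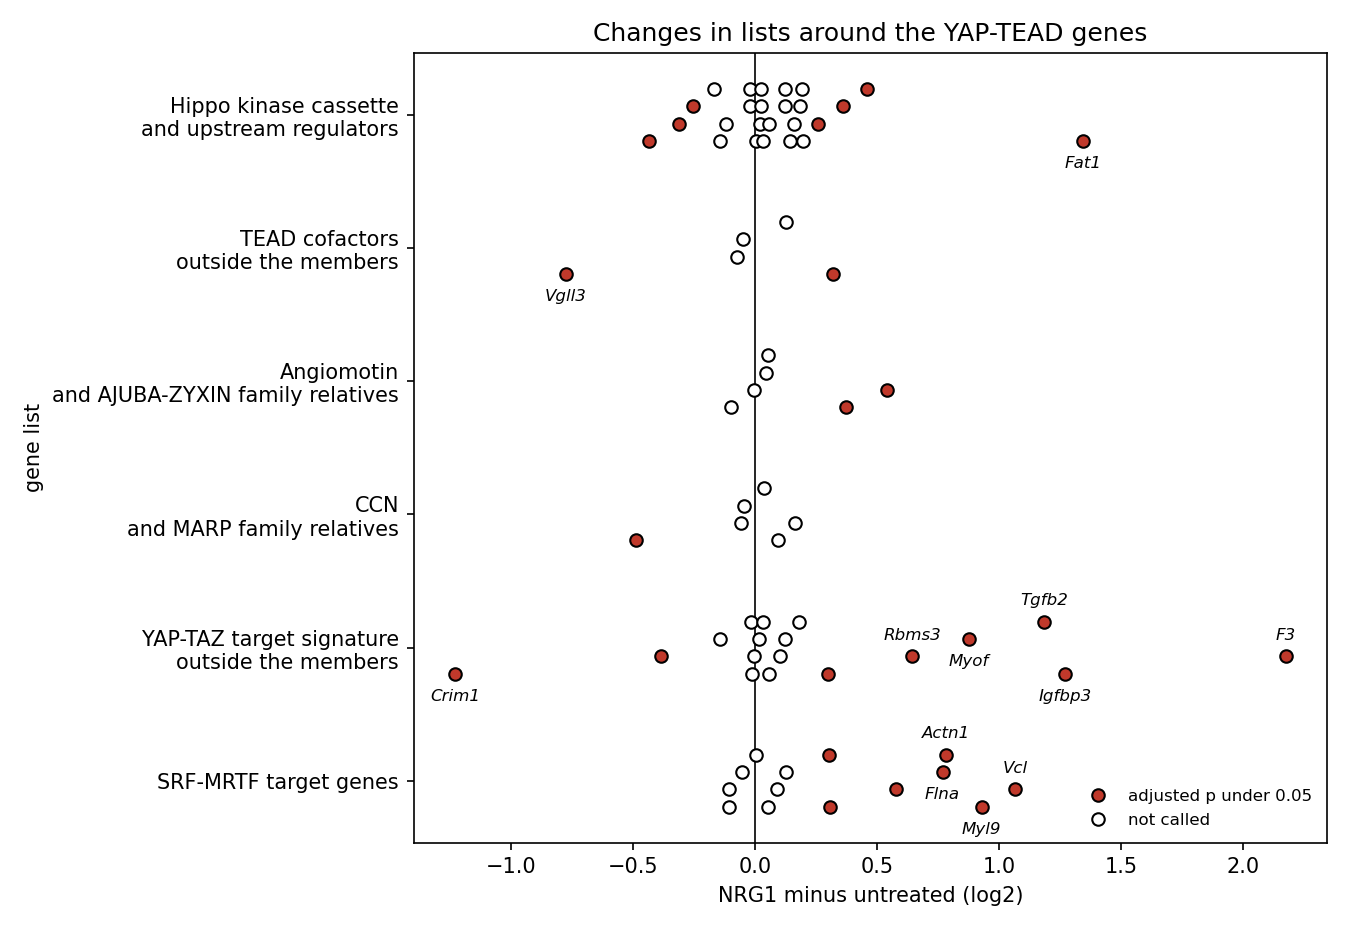
Differences between NRG1 and untreated cells (horizontal axis, log2) for the genes of 6 lists around the YAP-TEAD genes (vertical axis, points spread vertically for legibility), filled where the limma adjusted p was under 0.05 and named where a called change exceeded 0.6 in size. Filled points lie on both sides of 0 in the Hippo, cofactor and target signature lists, and to the right of 0 in the SRF list.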

How the data were processed

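Total RNA from 3 NRG1-treated and 3 untreated samples was hybridised to Affymetrix Mouse Gene ST arrays. The values are log2 summaries per probe set that the authors made with GCOS and RMA, per the submitters' processing notes, which name no settings or versions. Their range (2.34 to 14.6) fits a log2 scale. Arrays have no read depth, and 3 per group limit the precision.

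Groups came from the sample titles. The 6 columns each matched 1 sample, with 0 left over. Of 35557 probe sets, 21789 named 1 gene, 1621 several and 12147 none here, and 21698 matched a RefSeq gene (GRCm38.p6) by number, which updated the symbols. The brightest probe set per gene was kept, leaving 19938 genes with no filter on level. Genes were tested with limma 3.58.1 in R 4.3.3 (2 group means, 2-sided, Benjamini-Hochberg over all genes, called under 0.05). Changes are NRG1 minus untreated, and confidence intervals (95%) are per gene. Members and lists were chosen with earlier results of these data known. Named genes were all members and up to 3 called genes per list and direction, with exceptions stated beside their values. The 3 genes of the smallest root mean square distance were found for each member, and are named for the called members alone. In 10 simulations with the layout of this comparison, over 19938 genes with 200 changed, 97.8% of changes of 1, 73% of changes of 0.5 and 24% of changes of 0.3 on the log2 scale were recovered, with 0 of the wrong sign. The data had 4168 called genes, and the Benjamini-Hochberg cutoff is less strict where more genes change. The simulated shares thus hold for 200 changed genes and not for the data.

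Alternatives were other normalizations, filters on level, probe set rules and priors, array weights, a replicate block, a minimum change and leaving out each array. Quantile normalization of the tested genes alone was added after the data were seen. Probe-level background correction was not run, because only summarised values were used. A pseudocount was not needed on the log scale.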

Additional observations from a re-analysis of the deposited data

How the results depend on the processing

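For the 10 genes, 162 of 169 values under the alternatives kept the direction and the side of the threshold. The count of called members stayed within 1.5 times 4, and the count in the target signature within 1.5 times 8, under every alternative run. The exceptions among single members were the calls gained by Yap1 and Tead1 and lost by Tead4, given above, and Ankrd1, which was never called, ran from -0.059 to 0.118 over the fits without a single array (-0.009 without untreated replicate 1), and was dropped by both filters on level. Against a minimum change of 1.2-fold, 1225 of all genes and 1 of the Hippo genes were called, against 4168 and 7, by the construction of that test. Among list genes named above, the calls of Wwtr1, Frmd6, Csnk1e, Taok3, Wwc2, Stk4, Limd1, Ccn4, Asap1, Axl and the marker Cd68 ended against that minimum. So did those of the melanocyte markers Dct, Tyr and Tyrp1, as given above. Without genes below the median level, 43.9% of all genes were called. There the shares were 50% of 4 TEAD cofactors, 33.3% of 6 relatives of Amotl2 and Ajuba and 33.3% of 3 CCN and ANKRD1 relatives. They were 66.7% of 12 signature genes and 71.4% of 7 SRF targets. The count of Hippo genes was 12 of 22 (54.5%, against 43.9% of all genes) without genes below the median level, 11 of 25 (44%, against 24.4%) with an intensity trend and robust prior and 14 of 25 (56%, against 30.5%) with array weights, and the cause was not tested. The replicate numbers did not pair the arrays: deviations of same-numbered arrays correlated at -0.095, -0.16 and 0.074, and with the replicate number as a block 4 members and 3609 of all genes were called. The mean signal of Ankrd1 was low, at the 16.6th percentile of the tested genes. Its signal over background was not measured, because no probe-level signals were used.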

Other observations

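The genes whose profiles over the 6 arrays lay nearest to those of the called members were listed by the root mean square distance between log2 values centred on each gene's mean. For Ccn1 they were Abhd2 (distance 0.043), Nt5dc2 (0.048) and Trip13 (0.058), and 52 genes lay within 0.1. The nearest to Tead2 were Pcolce (0.021), which encodes an enhancer of procollagen cleavage, Coro2b (0.027) and Smtn (0.035), which encodes the actin-associated smoothelin. Amotl2 had Dkk3 (0.029), Zcchc2 (0.030) and Ppm1k (0.031) beside it, and Tead4 had Orai3 (0.019), Lsm8 (0.023) and Pde10a (0.028). By this measure any gene with a like difference between the groups and a like spread lies near.

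The TEAD core was about as frequent in the promoters of genes that changed as in those of genes that did not. Among tested genes with exactly 1 promoter window, it was in 12.0% of 1584 that rose, 12.0% of 1040 that fell and 13.2% of 10353 that were not called. The AP-1 core was in 4.61%, 5.58% and 7.45% of the same windows. These shares are descriptions without a test, and base composition of the windows was not compared.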
